A study of Mus musculus with 16 samples.

Results

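Cytosolic RNA is sensed by RIG-I-like receptors, helicases that recognize double-stranded RNA in the cytoplasm and pass the signal to the mitochondrial adaptor MAVS, which leads to type I interferon. A pair of proteins with Z-nucleic acid binding domains sits beside this route: ZBP1, which detects left-handed Z-RNA or Z-DNA and can start inflammatory cell death through RIPK3, and ADAR1, which edits adenosine to inosine in double-stranded RNA and so keeps self RNA from being sensed. PKR, the product of *Eif2ak2*, is a kinase that binds double-stranded RNA and stops translation by phosphorylating eIF2. Several of these sensors are themselves induced by interferon, so in a kidney with lupus nephritis they are part of both the sensing machinery and its response.

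The genes described here are 7 members of this group, *Ddx58* (RIG-I), *Ifih1* (MDA5), *Dhx58* (LGP2), *Mavs*, *Zbp1*, *Eif2ak2* (PKR), and *Adar* (ADAR1), chosen by name from 22911 gene symbols on the array. A probe belonged to a member if the array design gave it a transcript of that gene. This gave 12 probes of 56605, and 12 of the 12 were among the 35615 probes tested. *Ddx58* had 4 probes, *Zbp1* and *Adar* had 2 each, and the other members had 1. Each gene is given by its brightest probe, which was well above background on 16 of 16 arrays for each of the 7 genes. Values are log2 of the background-corrected signal over the 75th percentile of its array, so that 0 marks that percentile. Levels of different genes come from different probes and are not compared with each other.

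Whole kidneys of 16 mice aged 6 months were hybridized to one-color arrays, each array holding 1 kidney and each genotype 4 mice. Wild-type (C57BL/6) and Sting-ko (C57BL/6) mice were set beside Fcgr2b-ko mice, labelled as the lupus mice, and mice labelled Fcgr2b-ko, Sting-ko (double-deficient), both on the strain background 129/C57BL/6. *Fcgr2b* encodes the inhibitory Fc receptor, lost in the whole animal, and *Sting* encodes the adaptor that detects cyclic dinucleotides made in response to cytosolic DNA. The study crossed both losses to ask whether STING takes part in the lupus of the Fcgr2b-deficient mouse. Strain and *Fcgr2b* genotype run together and cannot be told apart, and the study's own heatmap headings give the lupus group as carrying 1 mutant *Sting* copy, where the labels name the *Fcgr2b* deletion alone.

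The *Fcgr2b* probe averaged 1.18 ± 0.44 in wild-type, 0.27 ± 0.70 in Sting-ko, −0.26 ± 0.34 in Fcgr2b-ko, and −0.56 ± 0.41 in double-deficient kidneys (SD, n = 4). It was well above background on 4 of 4 arrays of each genotype. The Fcgr2b-ko kidneys (−0.51 to 0.23) lay below the wild-type kidneys (0.61 to 1.65) but overlapped with the Sting-ko kidneys (−0.65 to 1.01), whose labels name no *Fcgr2b* deletion. *Sting* in these mice carries the gt (goldenticket) allele, a point mutation, so its transcript signal does not check the label, and it overlapped between genotypes (−0.75 ± 1.03 in wild-type and −0.21 ± 0.48 in Sting-ko, n = 4). The 16 arrays lay on 2 slides. Slide 1 held Fcgr2b-ko replicates 1, 2, and 4 and slide 2 held replicate 3, whereas 3 of the 4 double-deficient kidneys were on slide 2. Proximal tubule markers, which define most of the cortex, were at 5.43 to 7.46 as a list mean in all 16 kidneys, with 5 of 5 genes well above background.

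The RIG-I-like receptors come first. *Ifih1* encodes MDA5, which binds long double-stranded RNA. Its signal was 0.33, −1.08, −0.46, and −0.32 in the 4 wild-type kidneys. In the Fcgr2b-ko kidneys it was 1.45, −0.62, −1.07, and 0.56, so replicates 1 and 4 lay above every wild-type kidney and replicates 2 and 3 lay below 3 of the 4. The double-deficient kidneys held −0.53, −0.09, −0.26, and −1.06, and the Sting-ko kidneys held 0.56, −0.42, −0.59, and −1.17. All 4 genotypes overlapped. The Fcgr2b-ko mean was higher than wild-type by 0.46 ± 0.51 on the log2 scale (SE; 95% interval −0.61 to 1.54) and the double-deficient mean differed from Fcgr2b-ko by −0.56 ± 0.51 (95% interval −1.64 to 0.51), both at adjusted p = 1.0 (limma, n = 4). Without Fcgr2b-ko replicate 1 these differences were 0.0059 and −0.11, and without replicate 3 they were 0.84 and −0.94.

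*Dhx58* encodes LGP2, which lacks the signaling domains of the other receptors and tunes MDA5. It had the widest range of the 3 receptors, from −4.59 in wild-type replicate 2 to −0.35 in Fcgr2b-ko replicate 1. Its wild-type signals were −2.21, −4.59, −4.48, and −3.34, and its Fcgr2b-ko signals were −0.35, −3.09, −3.93, and −1.26. The same replicates, 1 and 4, were the highest of the 16 arrays. The double-deficient kidneys were at −3.45, −3.07, −2.97, and −4.56 and the Sting-ko kidneys at −2.15, −3.80, −3.08, and −2.14, so that 2 Sting-ko kidneys lay above all 4 wild-type kidneys. The Fcgr2b-ko mean was 2.82-fold the wild-type mean (log2 difference 1.50 ± 0.73 SE, 95% interval −0.06 to 3.05, unadjusted p = 0.0578, adjusted p = 1.0, limma). Double-deficient kidneys differed from Fcgr2b-ko by −1.36 ± 0.73 (unadjusted p = 0.0826, adjusted p = 1.0, limma). Leaving out Fcgr2b-ko replicate 1 gave 0.90 and −0.75, and leaving out replicate 3 gave 2.09 and −1.95.

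*Ddx58* encodes RIG-I, which binds short double-stranded RNA with a triphosphate end. Its brightest probe read 0.56, 0.46, 1.13, and 1.17 in wild-type and 1.87, 1.17, 0.52, and 2.08 in Fcgr2b-ko kidneys. It read 1.31, 0.37, 1.19, and 0.46 in double-deficient and 1.01, 1.13, 0.41, and 1.20 in Sting-ko kidneys. Again Fcgr2b-ko replicates 4 and 1 were the highest of the 16 and replicate 3 was in the lower part of the range. The means differed by 0.58 ± 0.35 for Fcgr2b-ko against wild-type and by −0.58 ± 0.35 for double-deficient against Fcgr2b-ko (SE, adjusted p = 1.0 for both, limma). Without Fcgr2b-ko replicate 4 they were 0.36 and −0.35, and without replicate 3 they were 0.88 and −0.87. The other 3 probes of *Ddx58* gave differences of 0.34 to 0.68 and −0.68 to −0.29, the same directions. They correlated with each other at r = 0.77 to 0.98 over the 16 arrays, but with the brightest probe only at 0.52 to 0.54. In Sting-ko replicate 4, for example, the second brightest probe read 1.44, second only to Fcgr2b-ko replicate 1 at 2.38, whereas the brightest probe read 1.20, next to the highest wild-type kidney at 1.17.

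**Figure D1:**
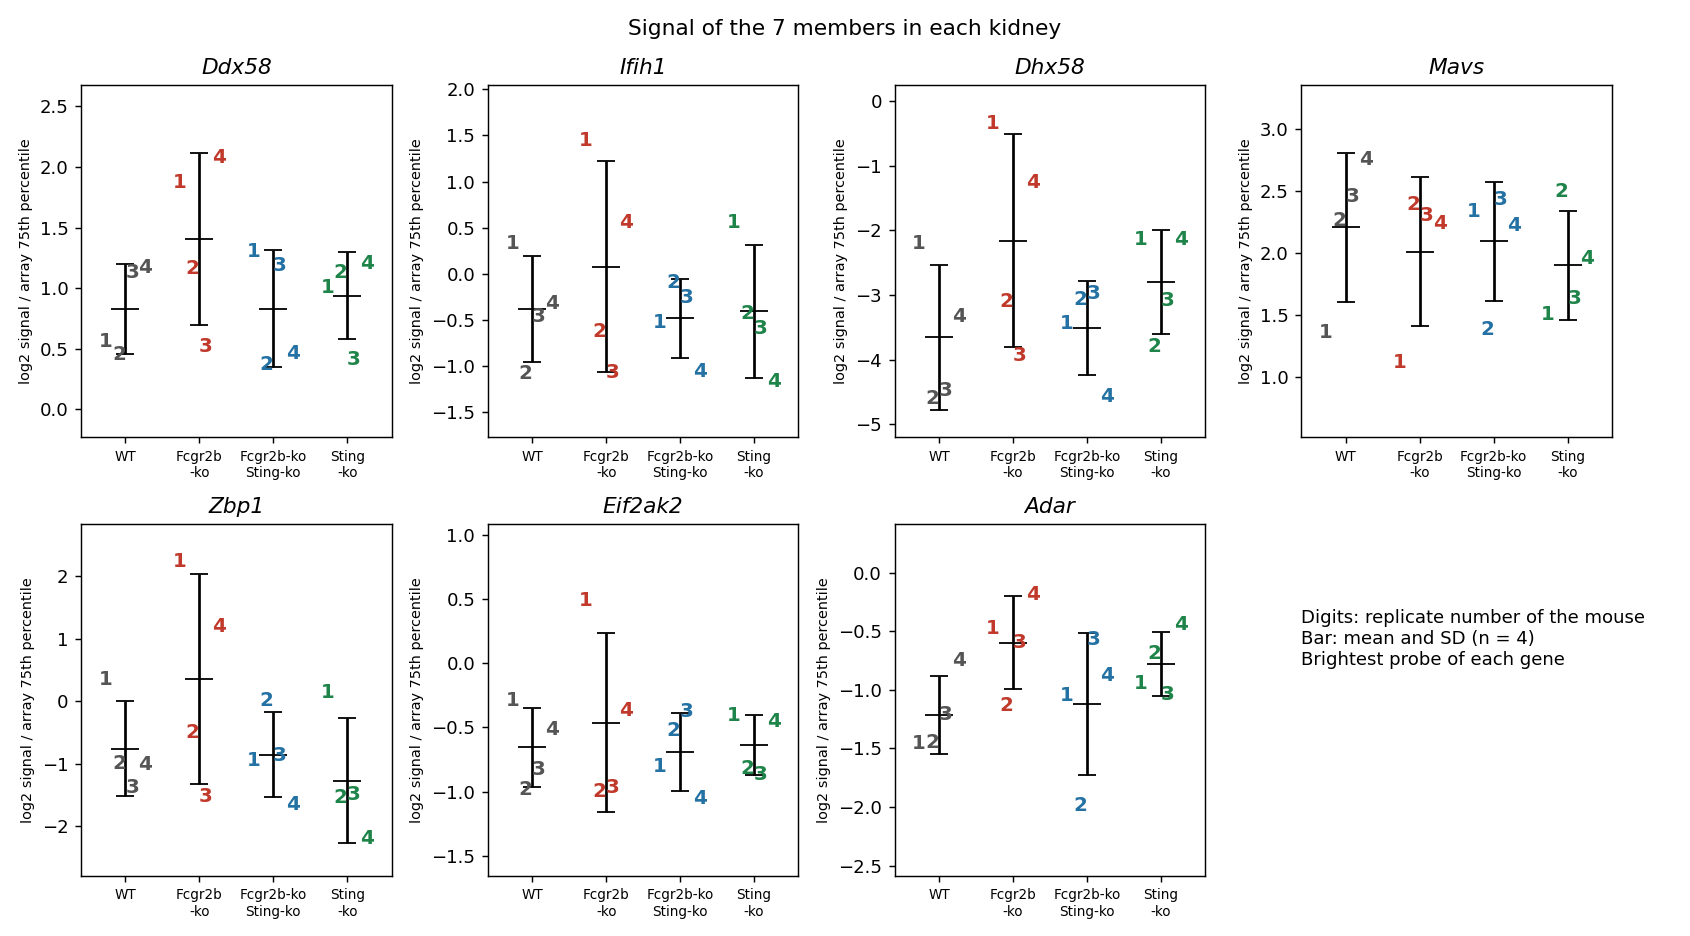
Signal of each member's brightest probe in the 16 kidneys (y axis, log2 of the signal over the array's 75th percentile, on a scale of its own for each gene), by genotype (x axis). Digits are replicate numbers and bars are the mean and SD of 4 mice. Fcgr2b-ko replicates 1 and 4 are among the 3 highest kidneys for every gene but *Mavs*, and each group overlaps with each other group.

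For 5 of the 7 members a RefSeq window of 250 bases before and 50 bases after an annotated start was at hand (7 windows, build GRCm38.p6). The windows were searched on both strands for the letters GAAANNGAAA, the core of an interferon-stimulated response element, and TTCNNNGAA, the core of a STAT binding site. The first occurs in 3.44% of all 32851 windows of this length, and the second in 8.30%. It was found just after the start of *Ifih1*, *Ddx58*, and *Eif2ak2*, and it was not among the letters of the windows of *Mavs* and *Adar*. The stretches are shown because these are the letters that 3 of the 5 members share, and capitals mark the match:
Ifih1 (chr2:62646206-62646235, minus strand): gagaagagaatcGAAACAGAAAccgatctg
Ddx58 (chr4:40239804-40239833, minus strand, match on the opposite strand): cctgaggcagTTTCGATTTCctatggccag
Eif2ak2 (chr17:78882535-78882564, minus strand): agtccgccggGAAAACGAAAcagaagagaa
The matches began 32, 2, and 18 bases after the start. Of the second motif, *Eif2ak2* held 1 match at −178 to −170 from the start, in capitals here with the bases before its start, and *Adar* held 1 just after the start of 1 of its 3 windows. The bases before the start of *Mavs* are set beside it, and neither motif is among them, as in most windows:
Eif2ak2 (chr17:78882573-78882822, minus strand): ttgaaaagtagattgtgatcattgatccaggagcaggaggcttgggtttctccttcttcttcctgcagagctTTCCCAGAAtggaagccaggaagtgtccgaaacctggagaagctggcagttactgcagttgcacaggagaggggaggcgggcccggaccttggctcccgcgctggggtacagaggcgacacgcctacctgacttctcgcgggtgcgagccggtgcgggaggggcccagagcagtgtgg
Mavs (chr2:131233813-131234062, plus strand): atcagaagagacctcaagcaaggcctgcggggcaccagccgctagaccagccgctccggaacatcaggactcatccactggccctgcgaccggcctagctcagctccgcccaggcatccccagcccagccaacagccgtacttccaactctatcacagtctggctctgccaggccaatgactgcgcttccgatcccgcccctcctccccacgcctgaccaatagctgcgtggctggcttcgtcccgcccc
A match is a run of letters only, and binding was not measured.

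*Mavs*, the adaptor on mitochondria that the receptors share, ran against *Ifih1*, *Dhx58*, *Zbp1*, and *Eif2ak2* (r = −0.61 to −0.57 over the 16 kidneys) but not against *Ddx58* (0.12) and *Adar* (0.28). Its signal was 1.36, 2.26, 2.45, and 2.75 in wild-type kidneys and 1.12, 2.39, 2.30, and 2.24 in Fcgr2b-ko kidneys. The double-deficient kidneys held 2.33, 1.39, 2.43, and 2.22, and the Sting-ko kidneys 1.51, 2.50, 1.64, and 1.96. The lowest arrays were therefore single mice of different genotypes, Fcgr2b-ko replicate 1, wild-type replicate 1, and double-deficient replicate 2. The largest difference of group means was −0.31, for Sting-ko against wild-type, and the others included −0.19 ± 0.37 for Fcgr2b-ko against wild-type and 0.08 ± 0.37 for double-deficient against Fcgr2b-ko (SE, adjusted p = 1.0, limma). The 95% intervals, −0.99 to 0.60 and −0.71 to 0.87, leave room for changes of less than 2-fold in either direction. Without Fcgr2b-ko replicate 1 the signs turned, to 0.10 and −0.21, and the second also turned without double-deficient replicate 3 (−0.030). The Sting-ko difference ran from −0.59 to −0.12 as each array was left out in turn. Across the 16 kidneys *Mavs* tracked the mean of thick limb and distal nephron markers (*Umod*, *Slc12a1*, *Slc12a3*, *Aqp2*) at r = 0.91. That list was at 3.24, 3.30, and 3.34 in the 3 kidneys lowest in *Mavs* and at 3.99 to 5.04 in the other kidneys, and 4 of 4 of its genes were well above background in each. The part of tissue sampling in the *Mavs* signal was not tested.

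*Zbp1* was the Z-nucleic acid sensor of the set. Its signal was 0.34, −1.0, −1.39, and −1.01 in wild-type kidneys and 2.24, −0.50, −1.53, and 1.20 in Fcgr2b-ko kidneys. Replicates 1 and 4 again led, and the range within the Fcgr2b-ko group was 3.77 on the log2 scale. The double-deficient kidneys ranged from −1.65 to 0.01 (−0.94, 0.01, −0.86, and −1.65) and the Sting-ko kidneys were at 0.14, −1.54, −1.49, and −2.20. The Fcgr2b-ko mean was 2.17-fold the wild-type mean (log2 difference 1.12 ± 0.71 SE, unadjusted p = 0.137, adjusted p = 1.0, limma), and the double-deficient mean differed from it by −1.21 ± 0.71 (unadjusted p = 0.109, adjusted p = 1.0, limma). Without Fcgr2b-ko replicate 1 these were 0.49 and −0.58, and without replicate 3 they were 1.75 and −1.84. The SD of *Zbp1* in Fcgr2b-ko kidneys, 1.69, was above those of the other genotypes, 0.68 to 0.99, and the same held for *Ifih1*, *Dhx58*, *Eif2ak2*, and *Ddx58*.

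The second *Zbp1* probe was dimmer, well above background on 13 of the 16 arrays. It was not so in wild-type replicates 2 and 3 and in Fcgr2b-ko replicate 2. It read −4.67, −5.15, −4.91, and −4.01 in wild-type and −1.51, −4.35, −4.02, and −1.49 in Fcgr2b-ko kidneys, the same pair of high mice. Its difference was larger, 1.84 ± 0.60 for Fcgr2b-ko against wild-type (SE, unadjusted p = 0.00800, limma) and −1.32 ± 0.60 for double-deficient against Fcgr2b-ko (unadjusted p = 0.0455, limma), and neither passed after adjustment (adjusted p = 1.0). With only 2 of the 4 wild-type kidneys well above background on this probe, the size of the first difference is uncertain. In Sting-ko kidneys the probes disagreed, since the brightest probe had a mean lower than wild-type by 0.51 on the log2 scale and the dimmer one a mean higher by 0.81. They correlated at r = 0.72 over the 16 arrays.

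**Figure D2:**
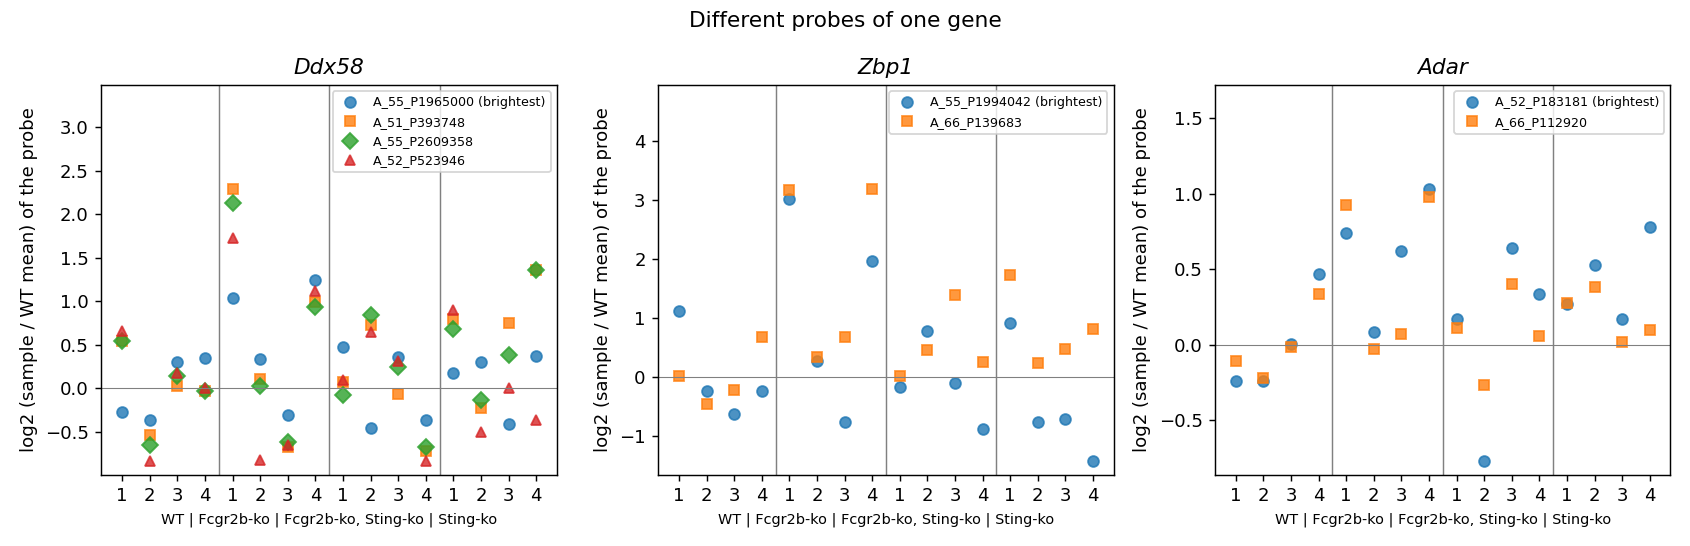
Each probe of the 3 members with more than 1 probe, as log2 of the sample over that probe's wild-type mean (y axis), in the 16 kidneys (x axis, replicate numbers within genotype). The 4 *Ddx58* probes and both *Zbp1* probes share high values in Fcgr2b-ko replicates 1 and 4, and the *Zbp1* probes part in Sting-ko replicate 4. On some of the dimmer *Ddx58* probes Sting-ko replicate 4 is above Fcgr2b-ko replicate 4.

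*Adar*, whose long, interferon-inducible isoform carries the other Z-nucleic acid binding domain, read −1.46, −1.45, −1.21, and −0.75 in wild-type kidneys. The Fcgr2b-ko kidneys were at −0.48, −1.13, −0.60, and −0.18. On this probe replicate 3 lay above every wild-type kidney, but on the second *Adar* probe it read −2.34, inside the wild-type range of −2.63 to −2.08. The double-deficient kidneys read −1.05, −1.99, −0.57, and −0.88 and the Sting-ko kidneys −0.94, −0.69, −1.04, and −0.44. The differences were 0.62 ± 0.31 for Fcgr2b-ko against wild-type (SE, unadjusted p = 0.0636, limma) and −0.53 ± 0.31 for double-deficient against Fcgr2b-ko (unadjusted p = 0.110, limma), both at adjusted p = 1.0. Without double-deficient replicate 2 the latter was −0.24. The second *Adar* probe gave 0.49 and −0.41 and correlated with the first at r = 0.80. The probes of *Adar* were not assigned to its long or short isoform.

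The 4 genotype means of *Eif2ak2* lay within −0.69 to −0.46, closer together than those of the other members. The wild-type kidneys read −0.29, −0.98, −0.82, and −0.52, and the Fcgr2b-ko kidneys 0.49, −1.0, −0.97, and −0.37. Only Fcgr2b-ko replicate 1 stood above the wild-type range. The double-deficient kidneys were at −0.81, −0.53, −0.38, and −1.06 and the Sting-ko kidneys at −0.41, −0.82, −0.86, and −0.45, both close to the wild-type range. Its differences were 0.19 ± 0.31 and −0.23 ± 0.31 in the same 2 contrasts (SE, adjusted p = 1.0, limma), with 95% intervals of −0.47 to 0.86 and −0.89 to 0.43, which stay below a 2-fold change in either direction. Without Fcgr2b-ko replicate 1 the signs turned, to −0.12 and 0.088.

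In the order of the means, Fcgr2b-ko was highest of the 4 genotypes for 6 members, and wild-type was highest for *Mavs*. The lowest mean was that of wild-type for *Dhx58*, *Adar*, and *Ddx58*, of double-deficient for *Ifih1* and *Eif2ak2*, and of Sting-ko for *Zbp1* and *Mavs*. Neighbors in these orders overlapped for every member. Counted over the set, 6 of 7 members had a higher mean in Fcgr2b-ko than in wild-type kidneys and 6 of 7 a lower mean in double-deficient than in Fcgr2b-ko kidneys, *Mavs* being the exception in each. Both counts share the Fcgr2b-ko mice. The median difference of the members was 0.58 and −0.56, against −0.04 and 0.05 over all 35615 probes. At an adjusted p under 0.05 and at least 2-fold (limma), 0 of 7 members were called in Fcgr2b-ko against wild-type, where 16 probes or 0.0449% of all probes were called. At an unadjusted p under 0.05 the count was also 0 of 7, with 3.3% of all probes. No member's groups failed to overlap in this contrast, a pattern seen in 1.2% of probes. For double-deficient against Fcgr2b-ko the counts were 0 called (0% of all probes), 0 at an unadjusted p (1.77%), and 0 without overlap (1.01%). Over all 6 pairs of genotypes, 0 of 42 comparisons of a member had groups that did not overlap.

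The comparisons of double-deficient and Sting-ko kidneys, each with wild-type, leave out the Fcgr2b-ko mice. Double-deficient kidneys differed from wild-type by −0.11 to 0.14 over the brightest probes of the 7 members. Of these members 0 were called (0% of all probes), 0 were at an unadjusted p under 0.05 (0.418%, limma), and 0 were without overlap (0.548%). On the same probes, Sting-ko kidneys differed from wild-type by −0.51 (*Zbp1*) to 0.86 (*Dhx58*). Here 0 were called (0%), 0 were at an unadjusted p under 0.05 (3.71%, limma), and 0 were without overlap (1.92%). Leaving out 1 array at a time, the Sting-ko difference of *Zbp1* ran from −0.98 (without Sting-ko replicate 1) to −0.14 (without wild-type replicate 1). That of *Dhx58* ran from 0.55 (without wild-type replicate 2) to 1.34 (without wild-type replicate 1). On the dimmer probes, double-deficient against wild-type was 0.53 for *Zbp1*, 0.077 for *Adar*, and −0.00026 to 0.081 for *Ddx58*. Sting-ko against wild-type was 0.81, 0.19, and 0.0093 to 0.67 on these probes in the same order. The interaction, which again uses the Fcgr2b-ko mice, asks whether the effect of *Sting* loss differs between Fcgr2b-deficient and Fcgr2b-sufficient mice. It was −2.22 ± 1.03 for *Dhx58* (SE, unadjusted p = 0.0481, limma) and −0.96 ± 0.44 for *Adar* (unadjusted p = 0.0438, limma), and the other members ranged from −0.71 to 0.39, each by its brightest probe. The second *Adar* probe gave −0.60 (unadjusted p = 0.127, limma), the second *Zbp1* probe gave −2.13 ± 0.85 (SE, unadjusted p = 0.0248, limma) where the brightest gave −0.71, and the other 3 *Ddx58* probes gave −1.35 to −0.30. The adjusted p was 0.668 for *Dhx58* and for both *Adar* and second *Zbp1* probes (limma), and 0 members were called (0% of all probes). The 2 members whose brightest probe was at an unadjusted p under 0.05 stand beside 6.2% of all probes.

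**Figure D3:**
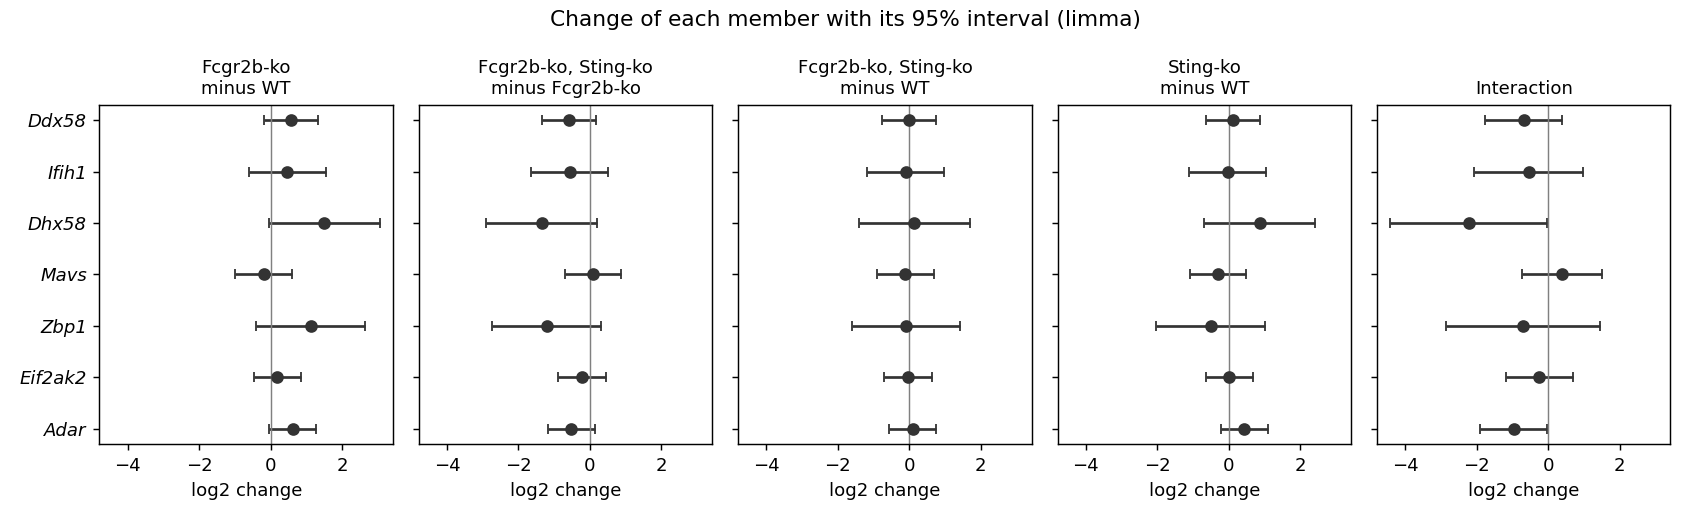
Log2 difference of each member (x axis) with its 95% interval from limma, in 5 contrasts of 4 mice per genotype. The interval includes 0 for each member in each of the first 4 contrasts, and in the interaction it misses 0 narrowly for *Dhx58* (−4.41 to −0.02) and *Adar* (−1.89 to −0.03).

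Slide and genotype were not balanced, so the differences were also taken within slides. With the slide as a block, Fcgr2b-ko against wild-type was 1.35 for *Dhx58*, 0.85 for *Zbp1*, 0.65 for *Adar*, 0.51 for *Ddx58*, 0.32 for *Ifih1*, 0.16 for *Eif2ak2*, and −0.15 for *Mavs*. On slide 1 alone, with 3 Fcgr2b-ko and 2 wild-type kidneys, all 7 differences were above 0, from 0.11 for *Mavs* to 1.83 for *Dhx58*. On slide 2, where replicate 3 was the only Fcgr2b-ko kidney, they were negative for 6 members (−0.68 for *Ifih1*, −0.64 for *Ddx58*, −0.33 for *Zbp1*, −0.30 for both *Mavs* and *Eif2ak2*, and −0.02 for *Dhx58*) and 0.38 for *Adar*. Double-deficient against Fcgr2b-ko likewise turned positive on slide 2 for *Ddx58* (0.16), *Ifih1* (0.60), *Dhx58* (0.39), *Zbp1* (0.70), and *Eif2ak2* (0.32), and stayed at −0.55 for *Adar*. With the slide as a block it was −1.07 for *Dhx58*, −0.67 for *Zbp1*, and −0.27 for *Ifih1*. Slide and mouse cannot be told apart in a group with 1 array on a slide.

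The members differed more between mice than between genotypes, and they did so together. Among the 6 members other than *Mavs*, Fcgr2b-ko replicates 1 and 4 were among the 3 highest of the 16 kidneys for 6 of 6. Fcgr2b-ko replicates 2 and 3 were there for 0 of 6, wild-type replicate 1 and Sting-ko replicate 4 for 2 each. Wild-type replicate 2 was among the 3 lowest for 5 of 6. After removing the genotype means, *Ifih1* and *Zbp1* correlated at r = 0.95 over the 16 arrays, *Dhx58* and *Eif2ak2* at 0.92, and the 6 pairs among *Ifih1*, *Dhx58*, *Zbp1*, and *Eif2ak2* at 0.80 to 0.95. *Mavs* correlated with these 4 genes at −0.71 to −0.61. *Adar* stood apart from them, at −0.14 to 0.23, and was closest to *Ddx58* at 0.61. All these values use the brightest probe of each gene. For *Ddx58* that probe correlated only at 0.52 to 0.54 with its other probes, and the second *Adar* probe was not compared here. These arrays share slides and the scaling of each array, and the values describe 16 mice only.

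The same mice separated a list of 20 interferon-induced genes that holds no member (*Isg15*, *Ifit1*, *Oas2*, *Rsad2*, *Usp18*, and others). The mean of this list was −1.54 to 0.64 in wild-type, −0.91 to 1.84 in Fcgr2b-ko, −1.23 to −0.20 in double-deficient, and −0.63 to 0.80 in Sting-ko kidneys, with Fcgr2b-ko replicates 1 and 4 highest at 1.84 and 1.05. Of its 19 genes tested, 19 had a higher mean in Fcgr2b-ko than in wild-type kidneys (median difference 0.93) and 0 were called, with 4 at an unadjusted p under 0.05 (limma). *Dhx58* followed the list at r = 0.95 (rho 0.94), *Ifih1* at 0.93 (rho 0.81), *Eif2ak2* at 0.89 (rho 0.86), and *Zbp1* at 0.86 (rho 0.69). Without the 2 kidneys farthest from the list's median, Fcgr2b-ko replicates 1 and 4, r was 0.88, 0.85, 0.80, and 0.66. *Dhx58* kept a high r on each slide (0.98 and 0.86, 8 arrays each), whereas *Zbp1* went from 0.91 on slide 1 to 0.46 on slide 2 and *Ifih1* from 0.99 to 0.56. *Adar* was at r = 0.31 with its brightest probe and 0.68 with its second, and −0.088 and 0.20 without those 2 kidneys. For *Ddx58* the brightest probe gave 0.57, falling to 0.10 without the same 2 kidneys, and the other 3 probes gave 0.83 to 0.91. *Mavs* was at −0.66 with and without them.

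**Figure D4:**
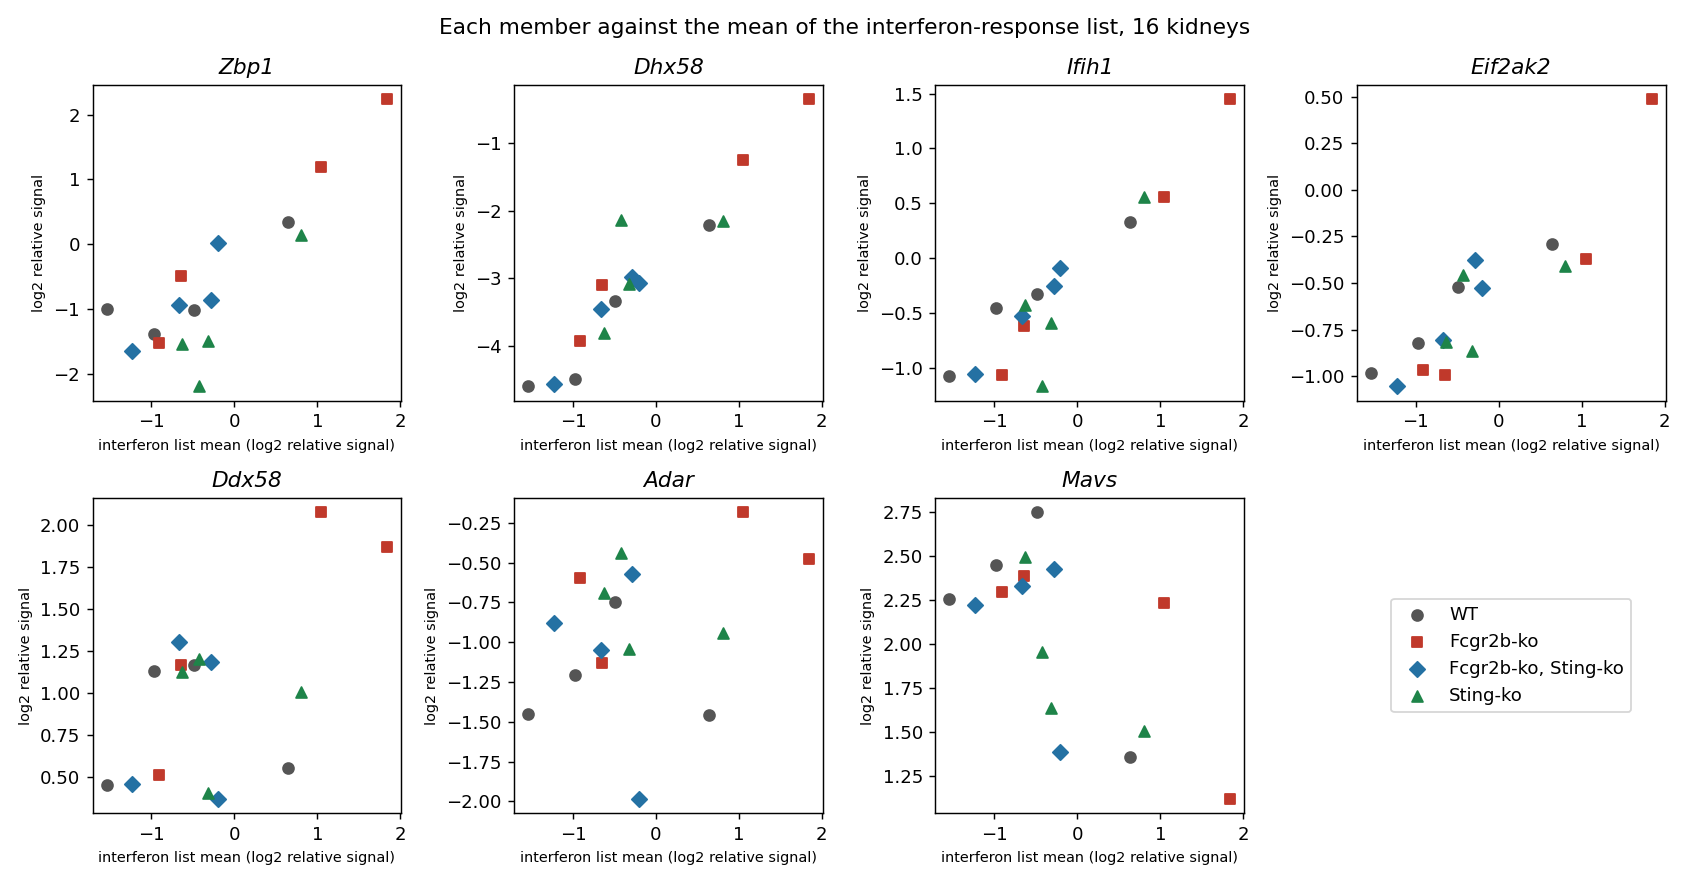
Log2 relative signal of each member (y axis) against the mean of the 20-gene interferon-response list (x axis, the same scale) in 16 kidneys, with color and symbol for genotype. *Dhx58*, *Ifih1*, *Eif2ak2*, and *Zbp1* run along the list (r = 0.86 to 0.95), *Adar* does so weakly (0.31), and *Mavs* runs against it (−0.66), each by its brightest probe.

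Some of the cell type lists were highest in the same mice. In whole kidney, fewer cells of a type and less RNA per cell cannot be told apart. The macrophage and monocyte list (7 of 7 genes well above background on each array) had a mean of 1.09 to 2.59 in wild-type, 2.12 to 4.09 in Fcgr2b-ko, 1.86 to 2.91 in double-deficient, and 1.59 to 2.50 in Sting-ko kidneys. The T cell list (5 of 5 genes well above background) had a mean of −2.38 to −0.82, −2.19 to 1.0, −2.31 to −0.85, and −1.52 to −0.29 in the same order. With genotype means removed, *Zbp1* correlated at 0.92 with the macrophage list and 0.94 with the T cell list, and *Ifih1* at 0.88 and 0.95. The proximal tubule list ran the other way, lowest at 5.43 in an Fcgr2b-ko kidney, with r = −0.96 for *Eif2ak2* and −0.88 for *Dhx58*. The brightest *Adar* probe was at −0.07 and −0.02 with the macrophage and T cell lists. The dendritic cell list (4 to 5 of 5 genes well above background) was also highest in Fcgr2b-ko replicates 1 and 4 (−0.43 and −0.67). The B and plasma cell list and the adipocyte list did not follow this pair. The B and plasma cell list had only 3 to 5 of 6 genes well above background. It was highest in wild-type replicate 1 (−1.13) and double-deficient replicate 2 (−1.42), with Fcgr2b-ko replicates 1 and 4 at −1.78 and −2.80. The adipocyte list (2 to 4 of 4 genes well above background) was at 1.03 and −2.81 in these 2 kidneys and at 1.01 in wild-type replicate 1. The podocyte list was highest in Fcgr2b-ko replicate 1 (1.91) and double-deficient replicate 3 (1.57), with Fcgr2b-ko replicate 4 next at 1.40. The part of infiltrating cells, or of tubule loss, in the member signals was not tested.

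**Figure D5:**
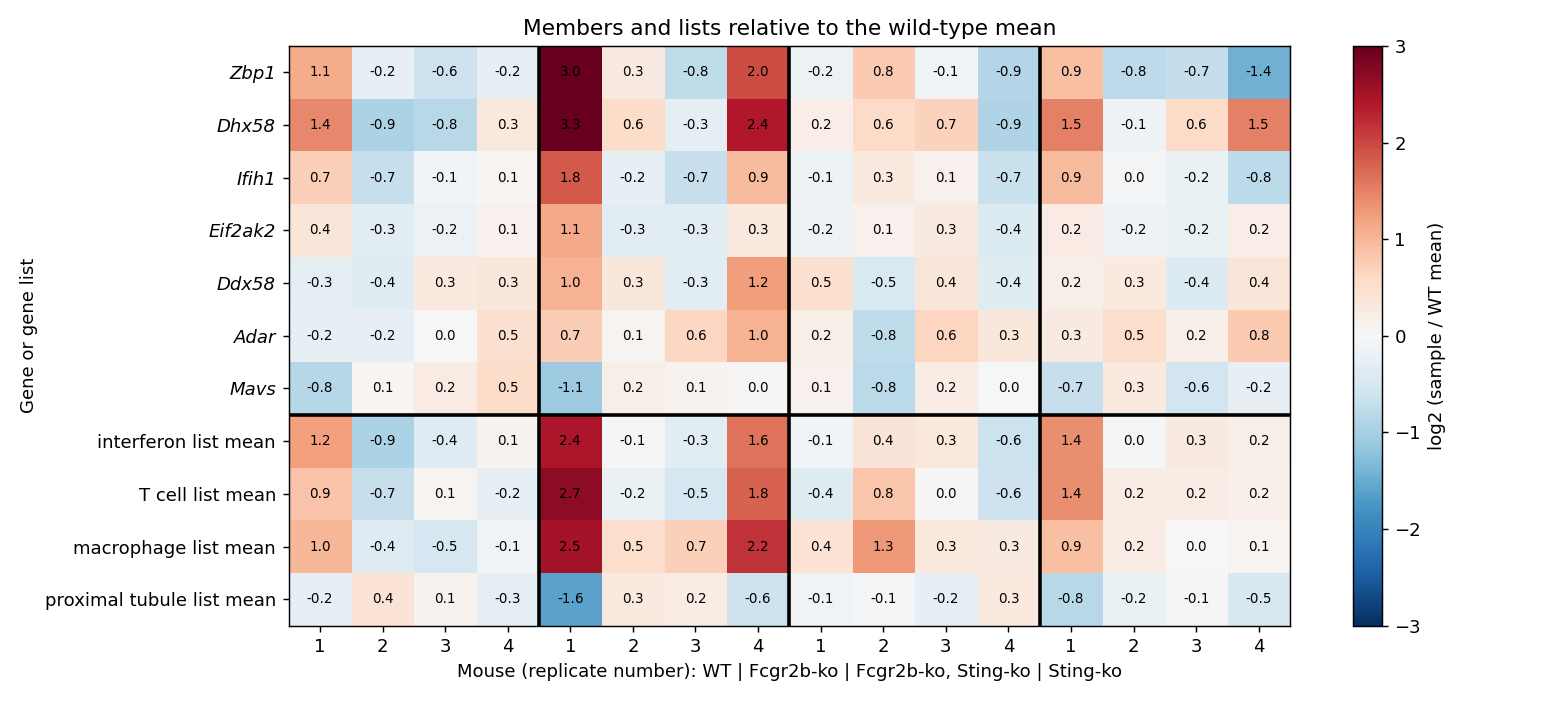
Log2 of each kidney's signal over the wild-type mean (color and printed value) for the 7 members, above the line, and for the means of 4 gene lists, below it. Columns are replicate numbers within wild-type, Fcgr2b-ko, double-deficient, and Sting-ko. *Zbp1* and *Dhx58* were 3.01 and 3.30 above the wild-type mean in Fcgr2b-ko replicate 1, the kidney that is also highest in the interferon, T cell, and macrophage lists and lowest in the proximal tubule list.

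The rest of each pathway was read from 5 lists, of which 69 different genes were tested. In Fcgr2b-ko against wild-type, 0 of the 69 were called. An unadjusted p under 0.05 was found for 4, or 5.80%, against 3.3% of all probes (limma). The mean was higher for 32, where 44.7% of all probes were higher, and the median difference was −0.03. The cofactors and brakes of the RIG-I-like receptors had 10 of 21 genes higher and a median of −0.01. The list had 0 genes at an unadjusted p under 0.05 in this contrast and in double-deficient against Fcgr2b-ko. Signaling below MAVS had 9 of 17 higher and a median of 0.05, and included *Ikbke*, an IKK-related kinase that phosphorylates IRF3 and IRF7, at 1.27 ± 0.47 (SE, unadjusted p = 0.0153, adjusted p = 1.0, limma). The wild-type mean of *Ikbke* was −4.91, near the dimmest signals that stood well above background on the wild-type arrays (−5.67 to −4.80). In the ZBP1 death pathway 2 of 6 genes were higher. One was *Ripk3*, the kinase that ZBP1 engages, at 1.67 ± 0.57 (SE, unadjusted p = 0.0106, adjusted p = 1.0, limma). In the PKR and eIF2 list 14 of 17 genes were lower, with a median of −0.17 and 0 at an unadjusted p under 0.05. Among adenosine deaminases and other double-stranded RNA enzymes 9 of 12 were higher, and *Samhd1*, a dNTP hydrolase, was at 0.95 ± 0.39 (SE, unadjusted p = 0.0283, adjusted p = 1.0, limma).

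In double-deficient against Fcgr2b-ko kidneys 0 of the 69 were called and 33 were higher, where 56.3% of all probes were higher. An unadjusted p under 0.05 was found for 3, or 4.35%, against 1.77% of all probes (limma). These 3 were *Irf7*, the transcription factor that amplifies interferon, at −1.43 ± 0.51 (unadjusted p = 0.0130), *Samhd1* at −1.03 ± 0.39 (unadjusted p = 0.0194), and *Ripk3* at −1.23 ± 0.57 (SE, unadjusted p = 0.0481), each at adjusted p = 1.0 (limma). *Ripk3* and *Samhd1* were named in each of these contrasts, which share the Fcgr2b-ko mice. *Irf7* was also higher in Fcgr2b-ko than in wild-type kidneys, by 1.23 ± 0.51 (SE, unadjusted p = 0.0291, limma), and was not called. Its p was not among the 3 smallest of that contrast. In double-deficient against wild-type kidneys 0 of the 69 genes were at an unadjusted p under 0.05, against 0.418% of all probes (limma). In Sting-ko against wild-type there were 3 (4.35%, against 3.71% of all probes), and in the interaction 7 (10.1%, against 6.2%). In each of these 0 were called.

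Of 16386 other named genes compared, those most like each member over the 16 kidneys were *Ifi47*, *Psmb9*, and *Cyrib* for *Ifih1* (Pearson's r = 0.96), *Parp9*, *Plac8*, and *Cd48* for *Zbp1* (0.97), and *Lyl1*, *AI839979*, and *Gpsm3* for *Dhx58* (0.96). For *Eif2ak2* they were *Klf6*, *Armcx4*, and *Anln* (0.94 to 0.96), for *Adar* *Srgap1*, *Tmem131l*, and *Fam110b* (0.92 to 0.94), for *Ddx58* *Sct*, *Pdpn*, and *Amph* (0.95), and for *Mavs* *Fbxo21*, *Scn4b*, and *Adck1* (0.96 to 0.97). The 7 members had 21 different nearest genes and shared none of them. Each member was taken by its brightest probe, which for *Ddx58* correlated only at 0.52 to 0.54 with its other probes.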

How the data were processed

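Total RNA of 1 kidney per mouse (100 ng) was labelled with Cy3 and hybridized to one-color Agilent arrays. The authors deposited scanner files whose processed intensity is the background-subtracted, detrended brightness of each spot (Agilent Feature Extraction 11.0), not scaled between arrays. They also deposited a table of log2 values whose normalization is not given in the sources used here. Its column medians were 4.93 to 5.54, but columns with the same replicate number held nearly the same set of values. Once sorted, such columns differed by at most 0.00077 on the log2 scale.

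The intensity was divided by the 75th percentile of the array and taken to log2. Controls and outliers were dropped and repeated spots of a probe averaged. Probes that stood well above background on 4 or more arrays entered limma 3.58.1 (R 4.3.3), with 1 mean per genotype. Of these, 13 probes without a usable spot on some array were left out. A call needed an adjusted p (Benjamini-Hochberg) under 0.05 and a change of 2-fold or more. The number of arrays limits the precision. Replicates are different mice. Probes were named through RefSeq (GRCm38.p6), which gave 1 symbol to 32994 of 56605 probes. No genome coordinates of probes are given, because the array design used another build. Promoter windows are RefSeq's. The test was checked on simulated data. Normexp used median spot signals.

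The members and lists were chosen with earlier results of these data known. Genes named are the 7 members, pathway genes that were called or had the 3 smallest unadjusted p in the Fcgr2b-ko contrasts, and the 3 genes most like each member. The targeted genes and some genes of the interferon and cell type lists are also named, the latter to say what a list holds. Alternatives covered background correction, scaling, the authors' table, filters, the test, slides, pairing, and each array left out. Replicate numbers were not treated as pairs in the main test. Of 24 same-numbered pairs, 11 had deviations that correlated above 0.1 (−0.60 to 0.69). Pairs with different numbers are not given beside them, so these values cannot say whether the numbers pair the arrays.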

Additional observations from a re-analysis of the deposited data

Results flagged for a closer look

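Of 28 sets of 4 kidneys (7 members in 4 genotypes), 1 held a kidney far from the other 3. *Mavs* was 1.12 on the log2 scale in Fcgr2b-ko replicate 1, against 2.24 to 2.39 in the other Fcgr2b-ko kidneys, a gap larger than Dixon's 95% limit. Chance picks out about 1 such group in 20. The thick limb and distal nephron list was also lowest in this kidney (3.24).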

How the results depend on the processing

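The count of called members was 0 in all 125 combinations of a contrast and an alternative that were run, including the Mann-Whitney test of the study's methods in the 4 comparisons of genotypes (it was not run for the interaction), and the smallest adjusted p of a member under any limma alternative was 0.371 (*Dhx58* and *Adar* in the interaction without Fcgr2b-ko replicate 2). The count of all probes called in Fcgr2b-ko against wild-type, 16, ran from 0 to 67 under the limma alternatives. By the Mann-Whitney test it was 143 without adjustment and 0 with it. With 4 against 4 arrays the p of that test cannot get small enough to pass an adjustment over all probes here. Its adjusted counts of 0 therefore carry no information, and without adjustment it calls only probes whose groups do not overlap. With a replicate block, 0 members and 15 probes were called in Fcgr2b-ko against wild-type. Scaling by the array median moved the median of all probes from −0.04 to −0.20 in Fcgr2b-ko against wild-type, from 0.01 to −0.10 in double-deficient against wild-type, from 0.02 to −0.22 in Sting-ko against wild-type, and from 0.01 to 0.29 in the interaction. Of 840 member differences under an alternative, 767 kept their sign and 73 turned it. In the first 2 contrasts 18 of 322 turned, each of them on 1 slide alone, with the slide as a block, or with 1 array left out. The cause was not tested. Slide 2 held 1 Fcgr2b-ko kidney. With 4 arrays per genotype, the 95% intervals for Fcgr2b-ko against wild-type reach past 2-fold for 5 members (*Ddx58*, *Ifih1*, *Dhx58*, *Zbp1*, and *Adar*), so differences of that size cannot be told from none here. For Fcgr2b-ko against wild-type, the log2 difference turned to 0.11 for *Mavs* on slide 1 alone, to −0.64 for *Ddx58*, −0.68 for *Ifih1*, −0.020 for *Dhx58*, −0.33 for *Zbp1*, and −0.30 for *Eif2ak2* on slide 2 alone. With each array left out in turn it ran from −0.12 to 0.37 for *Eif2ak2* and −0.48 to 0.10 for *Mavs*. For double-deficient against Fcgr2b-ko, the log2 difference turned to 0.16 for *Ddx58*, 0.60 for *Ifih1*, 0.39 for *Dhx58*, −0.29 for *Mavs*, 0.70 for *Zbp1*, and 0.32 for *Eif2ak2* on slide 2 alone, to −0.0089 for *Mavs* with the slide as a block. With each array left out in turn it ran from −0.41 to 0.088 for *Eif2ak2* and −0.21 to 0.32 for *Mavs*. For double-deficient against wild-type, the log2 difference turned to −0.045 for *Dhx58* and 0.52 for *Mavs* on slide 1 alone, to −0.48 for *Ddx58*, 0.37 for *Zbp1*, 0.019 for *Eif2ak2*, and −0.17 for *Adar* on slide 2 alone, to 0.047 for *Ifih1* and 0.18 for *Zbp1* with the slide as a block, to −0.11 for *Ddx58* and −0.014 for *Adar* with scaling by the array median, to −0.0050 for *Ddx58* and 0.22 for *Zbp1* with the median of a gene's probes, to −0.058 for *Dhx58* with normexp. With each array left out in turn it ran from −0.088 to 0.38 for *Adar*, −0.16 to 0.16 for *Ddx58*, −0.17 to 0.62 for *Dhx58*, −0.15 to 0.085 for *Eif2ak2*, −0.33 to 0.14 for *Ifih1*, −0.39 to 0.12 for *Mavs*, and −0.39 to 0.27 for *Zbp1*. For Sting-ko against wild-type, the log2 difference turned to 0.44 for *Ifih1* and 0.19 for *Mavs* on slide 1 alone, to −0.34 for *Ddx58* on slide 2 alone, to −0.13 for *Ddx58* and −0.22 for *Eif2ak2* with scaling by the array median, to 0.15 for *Zbp1* with the median of a gene's probes, to 0.044 for *Ifih1* with normexp, to −0.020 for *Eif2ak2* with quantile normalization, to −0.018 for *Eif2ak2* in the authors' table. With each array left out in turn it ran from −0.016 to 0.28 for *Ddx58*, −0.091 to 0.14 for *Eif2ak2*, and −0.34 to 0.23 for *Ifih1*. For the interaction, the log2 difference turned to 0.50 for *Ddx58*, 1.09 for *Ifih1*, 1.34 for *Zbp1*, and 0.30 for *Eif2ak2* on slide 2 alone, to 0.038 for *Eif2ak2* with scaling by the array median. With each array left out in turn it ran from −0.43 to 0.069 for *Eif2ak2*.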
